A study of Homo sapiens with 6 samples.

Results

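The 9 host genes described here stand where the E6 and E7 oncoproteins of human papillomavirus act: MDM2, CDKN1A, CDKN2A, RB1, RBL1, RBL2, UBE3A, TERT and MYC. They were listed by symbol because SiHa cells carry viral E6 and E7, and each symbol matched 1 of the 48162 Ensembl identifiers in the count table. SiHa is an established human cervical cancer cell line. In 3 samples it had received si-CNN3#1 (si-CNN3 in the labels), which is an siRNA, a short duplex RNA that lowers a chosen transcript, here that of calponin 3. In the other 3 it had received the control siRNA si-NC. All cells were grown in the same medium and harvested 48 h after transfection, and the study describes 3 independent assays per group. All samples come from 1 cell line, and viral transcripts were not analysed here.

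In cells with high-risk papillomavirus, E6 binds the ubiquitin ligase UBE3A (also called E6AP) and directs it to p53, which is then degraded. E6 also raises transcription of TERT, the catalytic subunit of telomerase. E7 binds the pocket proteins RB1, RBL1 (p107) and RBL2 (p130) and frees E2F transcription factors, and cells with active E7 are known for abundant p16, a product of CDKN2A. MDM2 and CDKN1A are textbook targets of p53: MDM2 is a ligase that removes p53, and CDKN1A encodes p21, an inhibitor of cyclin-dependent kinases. MYC encodes a growth-promoting transcription factor. Transcript levels say nothing of protein levels, on which E6 and E7 act.

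The agents that separate the groups are shown first, as sense strands from 5′ to 3′.
si-CNN3#1 sense: gcagaugggaaccaacaaatt
si-NC sense: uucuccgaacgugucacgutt
The guide strands below were taken as the reverse complement of the first 19 bases, and capitals mark the seed, bases 2 to 8, with which a guide can pair to other transcripts.
si-CNN3#1 guide: uUUGUUGGuucccaucugc
si-NC guide: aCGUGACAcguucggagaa
The word that pairs with the si-CNN3#1 seed, CCAACAA, was in no 3′ UTR of the coding transcripts of the 9 genes in GENCODE release 29. It was in the 3′ UTR of 10.4% of the 12646 tested genes that have one. The word for the si-NC seed, TGTCACG, was found in 1 of the 9, TERT, and in 3.48% of the same tested genes. In TERT it lies at bases 46 to 52 of the 3′ UTR, in capitals here.
TERT site: cagcagcccTGTCACGccgggctct
A match or its absence is a description of these letters only.

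Sequence upstream of 2 of the genes is shown: CDKN1A, which rose, and RBL1, 1 of the 7 that did not pass the test. Any link between the words marked here and the changes was not tested. RefSeq promoter windows (GRCh38.p14, 250 bases before to 50 after a start) matched 8 of the 9 genes. The 250 bases before a CDKN1A start, chr6:36678464-36678713 on the plus strand, hold the word GGGCGG, a binding word of SP1-like factors, at 4 places, and the pair nearest the start share 1 base. On either strand, GGGCGG was also in at least 1 window each of TERT, CDKN2A, MDM2, UBE3A and RBL2, which did not pass. Windows of MDM2 also hold TTTGGCGC, an E2F word. The p53 half-site, a part of the sequence that p53 binds, was searched too. It was absent from the windows of CDKN1A and MDM2. Of the 8 genes only RB1 held it, at 1 place, and 6.63% of all windows did. Sequence further from the starts was not searched.
CDKN1A: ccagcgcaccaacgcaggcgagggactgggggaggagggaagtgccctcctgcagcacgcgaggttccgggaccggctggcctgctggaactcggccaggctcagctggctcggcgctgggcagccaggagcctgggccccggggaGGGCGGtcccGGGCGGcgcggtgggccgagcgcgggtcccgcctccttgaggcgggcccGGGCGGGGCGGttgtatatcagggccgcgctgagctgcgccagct
GGGCGG, searched on both strands, was in 45.0% of the 35116 windows of all genes. The 60 bases before the RBL1 start, chr20:37095998-37096057 on the minus strand, hold TTCGCGC and TTTGGCGC, which are E2F words, next to each other.
RBL1: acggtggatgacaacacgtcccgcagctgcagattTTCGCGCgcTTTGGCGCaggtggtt
TTCGCGC was in 2.24% and TTTGGCGC in 0.652% of all windows, both strands searched.

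Total counts on genes ran from 18147028 to 19026341 with si-CNN3#1 and from 20287139 to 24976517 with si-NC, so that the si-NC samples were deeper. CNN3, the target, was counted 490, 514 and 574 times with si-CNN3#1 against 1134, 1288 and 1234 times with si-NC, a log2 fold change of -0.97 (SE 0.06, adjusted p = 2.04e-20 by edgeR). Of the 8 epithelial marker genes, KRT7, KRT8, KRT17 and KRT18 exceeded 100 FPKM in every sample and KRT5 stayed under 1 FPKM. KRT19, EPCAM and CDH1, the rest of that list, had mean levels of at least 1 FPKM. KRT8 and KRT18, keratins of simple epithelium, fell (log2 fold changes -0.19 and -0.18) and KRT17 rose (0.23), with adjusted p values of 4.87e-07, 5.31e-05 and 1.78e-07 in edgeR. Markers of other cell types summed to between 6.61 and 7.18 FPKM over 11 genes, except in si-NC replicate 2, where the sum was 20.0 FPKM. That sample held 185 counts of the haemoglobin gene HBB and the other 5 held 0, and without it CDKN1A (log2 fold change 0.29, adjusted p = 3.24e-08) and MYC (-0.21, adjusted p = 1.51e-05) were still called by edgeR. With all libraries thinned to the smallest total, CDKN1A (0.30, adjusted p = 3.13e-08) and MYC (-0.18, adjusted p = 0.000137) were called too. The part of the keratin differences in the results was not tested.

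The 9 genes spanned a wide range of levels in the control cells. FPKM, in which counts are scaled by gene length and by the total of the library, is used for levels between genes. CDKN2A was the highest, with 337, 349 and 350 FPKM in si-NC replicates 1, 2 and 3, above 99.4% of all genes of the table. TERT was the lowest, with 8.62, 8.09 and 8.21 FPKM, and still lay above 81.1% of all genes. In all 6 samples TERT was read clearly, with 382 to 499 counts. Between them, in falling order of mean FPKM, came CDKN1A at 96.3 ± 4.75, RBL2 at 92.0 ± 3.16, MYC at 82.9 ± 2.61, RB1 at 66.4 ± 3.13, MDM2 at 39.7 ± 1.36, UBE3A at 37.8 ± 1.09 and RBL1 at 26.6 ± 0.683 (SD, n = 3 each). The ranges of CDKN1A and RBL2 overlapped, and so did those of MDM2 and UBE3A, while all other neighbours in this order were apart. The order depends on gene length: the deposited FPKM imply 1648 bases for MDM2, whereas its exons in GENCODE release 29 cover 13284 bases. With the exon union as length, CDKN2A kept the first rank and TERT the ninth, MYC moved to rank 2 and MDM2 to rank 8.

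**Figure D1:**
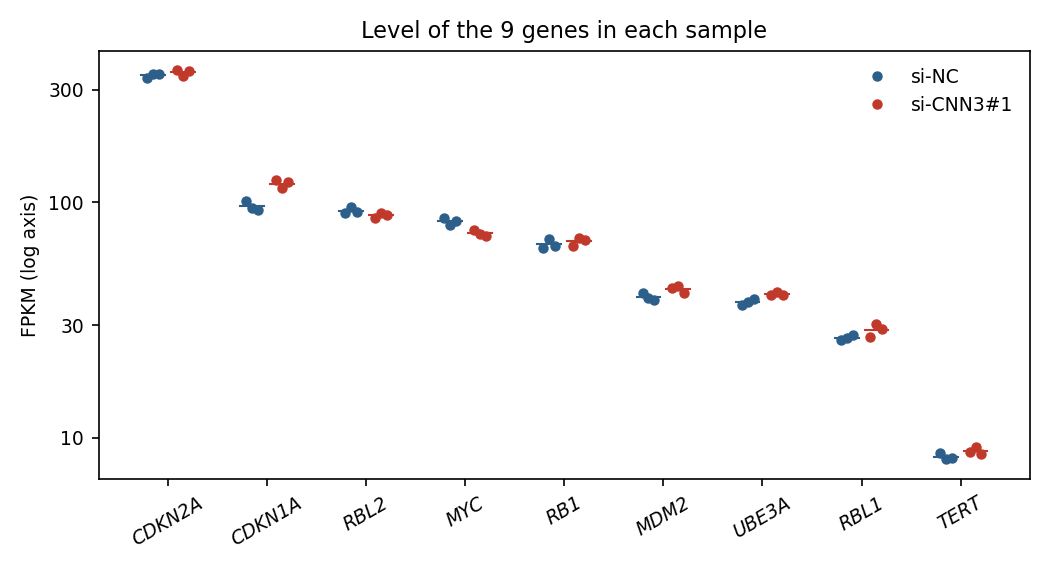
FPKM (log axis) of the 9 genes in each of the 3 si-NC (blue) and 3 si-CNN3#1 (red) samples, in falling order of the si-NC mean. Points are samples and lines are group means. CDKN2A lay near 350 FPKM and TERT between 8.09 and 9.15 FPKM in every sample, and the groups differed far less than the genes did.

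Of the 9 genes, all of which passed the filter on low counts, CDKN1A rose and MYC fell with si-CNN3#1, and 7 did not pass the test. The test was edgeR's quasi-likelihood test over 15860 genes, with Benjamini-Hochberg adjusted p of at most 0.05 as the threshold ("called"). Across all tested genes 13.3% were called, 6.17% higher and 7.14% lower with si-CNN3#1, beside 22.2% of the 9 genes, 1 in each direction. The calls over all genes numbered 978 higher and 1133 lower, or 1294 higher and 863 lower when scaled by total counts alone. The 3 samples of one group lay apart from the 3 of the other in CPM, counts normalised to the effective library size, for 4 of the 9 genes (CDKN1A, MYC, UBE3A and RBL2), against 28.2% of all tested genes. The median log2 fold change was 0.07 over the 9 genes, with 7 above 0, and 0.0023 over all tested genes. Every change among the 9 was smaller in size than that of CNN3.

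**Figure D2:**
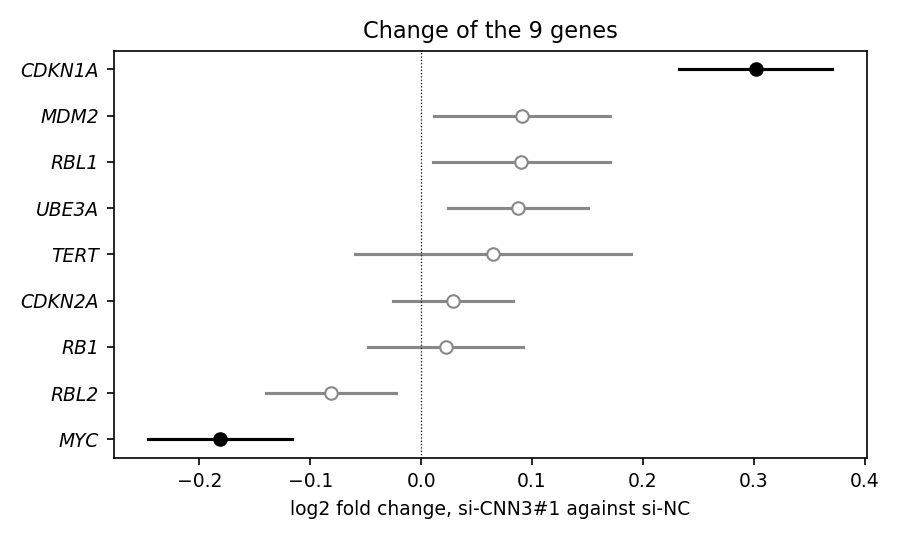
Log2 fold change of the 9 genes, si-CNN3#1 against si-NC, with 95% intervals as bars. Filled black points passed the adjusted p threshold of 0.05 and open grey points did not. CDKN1A at 0.30 and MYC at -0.18 stand at the 2 ends.

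CDKN1A (ENSG00000124762, chromosome 6, 36676460 to 36687339, plus strand of GRCh38) was read 2669, 2487 and 2520 times with si-CNN3#1 and 2354, 2695 and 2299 times with si-NC. Scaled for depth, this was 142, 129.5 and 138 CPM against 117, 108 and 107 CPM. The lowest si-CNN3#1 sample lay above the highest si-NC sample. The means were 136 ± 6.19 and 111 ± 5.78 CPM (SD, n = 3 each), a rise of 23.3% (log2 fold change 0.30, SE 0.04, with an adjusted p of 1.79e-09 by edgeR). The call held in all 17 alternative analyses, with log2 fold changes from 0.27 to 0.34. The smallest came without si-CNN3#1 replicate 1 and the largest without si-NC replicate 1. An antisense gene, DINOL, shares 146 exon bases with it and was not analysed here.

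MDM2 (ENSG00000135679, chromosome 12, 68808176 to 68850686, plus strand) had 71.2, 72.0 and 67.4 CPM with si-CNN3#1 and 68.7, 65.1 and 64.1 CPM with si-NC. The groups overlapped. The log2 fold change was 0.09 (95% interval 0.01 to 0.17, adjusted p = 0.139, edgeR), and MDM2 passed in none of the 17 alternatives, with adjusted p from 0.0664 to 0.386. MDM2 exons share 133 bases with the gene of carboxypeptidase M on the opposite strand, which had 967 to 1843 counts. Whether reads were counted by strand is not stated, so reads of the shared bases cannot be told apart. The same holds for other opposite-strand overlaps. RBL2 shares 610 exon bases with AKTIP (184 to 227 counts) and 721 with AC007342.6, which was not analysed here. CDKN2A shares 341 with CDKN2B-AS1 (62 to 90 counts), and RBL1 shares 211 with AL136172.1 (6 to 15 counts).

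Regulators and relatives of p53 went both ways. Of the 26 listed, 25 were tested, 2 were called higher and 3 lower, or 20.0% beside 13.3% of all genes. TP63, a p53 relative of stratified epithelium, rose by 0.68 on the log2 scale at a low level (59 to 96 counts over all samples, adjusted p = 0.000958, edgeR), and RCHY1, a p53 ubiquitin ligase, rose by 0.23 (adjusted p = 0.00676). CHEK1, the checkpoint kinase, fell by 0.15 (adjusted p = 0.00793), DAXX, a partner of MDM2, fell by 0.14 (adjusted p = 0.0158) and TRIM28, a corepressor that works with MDM2, fell by 0.09 (adjusted p = 0.0190, edgeR for all). CHEK1 lost its call without si-CNN3#1 replicate 1 (adjusted p = 0.118), and DAXX lost it without si-CNN3#1 replicate 2 (0.184) or si-NC replicate 3 (0.0874). TRIM28 lost it without si-CNN3#1 replicate 2 or 3 or si-NC replicate 1 or 2 (0.0695 to 0.126). MDM4, the partner of MDM2, did not pass (log2 fold change 0.09, adjusted p = 0.284). The median of the tested list was -0.0028, and turned to 0.0030 with upper quartile scaling and to 0.01 with total counts.

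Most p53 target genes did not pass. Of 41 further targets listed, 38 were tested, 5 were called higher and 2 lower, or 18.4% beside the 13.3% of all genes, with a median log2 fold change of 0.02. Scaling by total counts alone gave 8 higher and 1 lower, and limma on log2(FPKM + 1) gave 6 and 0. GADD45A, a growth arrest and DNA damage gene, rose from 23.9 ± 0.496 to 32.4 ± 1.35 CPM (SD, n = 3 each; log2 fold change 0.44, adjusted p = 3.26e-08, edgeR). PMAIP1, which encodes the cell death protein NOXA, rose from 13.1 ± 0.594 to 16.8 ± 0.687 CPM (0.36, adjusted p = 0.000378). Both passed in all 17 alternatives. GDF15, a secreted growth factor relative, had the largest increase of the list (0.51, adjusted p = 0.0392) at 48, 54 and 52 counts with si-NC and 51, 72 and 63 with si-CNN3#1, and lost its call in 5 of the 6 analyses that left out 1 library, with adjusted p from 0.0689 to 0.204 there and 0.0165 without si-CNN3#1 replicate 1. The 2 lower genes were POLH, a polymerase that copies past DNA lesions, and FDXR, a mitochondrial reductase (log2 fold changes -0.20 and -0.19, adjusted p = 0.0175 and 0.0296). POLH lost its call without si-CNN3#1 replicate 1, si-NC replicate 1 or si-NC replicate 2 (adjusted p from 0.0729 to 0.106). FDXR lost it without si-CNN3#1 replicate 1 or 3, or si-NC replicate 2 or 3 (0.0894 to 0.189). GADD45A, PMAIP1 and GDF15 are also known targets of the integrated stress response. The part of p53 or of that response in these changes was not tested.

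**Figure D3:**
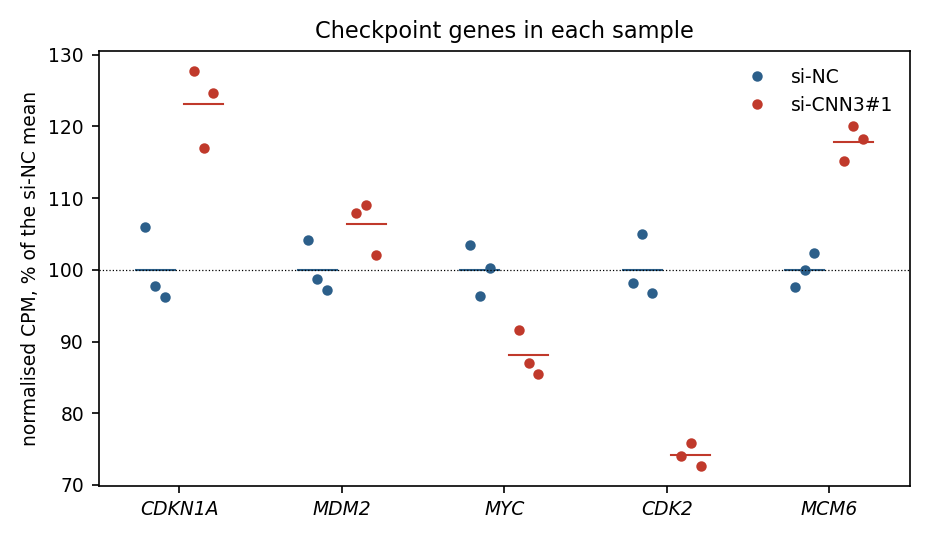
Normalised CPM of 5 genes in each sample as a percentage of the si-NC mean, with blue for si-NC, red for si-CNN3#1, points for samples and lines for group means; the axis does not start at 0. CDKN1A reached 117% to 128% with si-CNN3#1 and MYC 85.5% to 91.7%, CDK2 lay below and MCM6 above all control samples, and MDM2 overlapped.

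CDKN2A (ENSG00000147889, chromosome 9, 21967753 to 21995301, minus strand) encodes p16 and, from another reading frame, p14ARF, which share one row of counts here. It had 284, 266 and 279.8 CPM with si-CNN3#1 and 265, 273 and 275 CPM with si-NC. The groups overlapped, and the log2 fold change was 0.03 (95% interval -0.03 to 0.08, adjusted p = 0.580, edgeR). Its neighbour CDKN2B, which encodes the related inhibitor p15, rose from 42.9 ± 0.899 to 47.7 ± 1.31 CPM (SD, n = 3 each; 0.16, adjusted p = 0.0166). That call was lost without si-CNN3#1 replicate 1 or 2 or si-NC replicate 2 or 3 (adjusted p from 0.0544 to 0.0843). Of the 14 chromatin regulators listed for this locus, all tested, 1 was called, which is 7.14% of them beside 13.3% of all genes. It was KDM6A, a histone demethylase, higher by 0.14 (adjusted p = 0.00180). KDM6B, the demethylase most often tied to p16 in cells with E7, had a log2 fold change of 0.03 (adjusted p = 0.777, edgeR for both).

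None of the 3 pocket protein genes passed the test. RB1 (ENSG00000139687, chromosome 13, 48303726 to 48599436, plus strand) encodes the retinoblastoma protein and had 100.1, 107 and 105 CPM with si-CNN3#1 and 98.9, 107 and 101 CPM with si-NC. The groups lay over each other, with a log2 fold change of 0.02 (95% interval -0.05 to 0.09, adjusted p = 0.770, edgeR). RBL1 (ENSG00000080839, chromosome 20, 36996349 to 37095995, minus strand), the pocket protein of cycling cells, had 68.7, 77.4 and 73.7 CPM against 67.6, 68.1 and 70.8 CPM. The groups overlapped through si-CNN3#1 replicate 1. The log2 fold change was 0.09 (95% interval 0.01 to 0.17, adjusted p = 0.147), and without si-CNN3#1 replicate 1 it was 0.13 and passed (adjusted p = 0.0375). RBL1 passed in no other alternative, and without si-CNN3#1 replicate 2 its log2 fold change was 0.05 (adjusted p = 0.589, edgeR). RBL2 (ENSG00000103479, chromosome 16, 53433977 to 53491649, plus strand), the pocket protein of resting cells, had 165, 172 and 168 CPM against 174, 184 and 175 CPM. Every si-CNN3#1 sample lay below every si-NC sample, and the log2 fold change was -0.08 (95% interval -0.14 to -0.02, adjusted p = 0.0616). It just missed the threshold, and passed when the model held a block for the replicate number (adjusted p = 0.0132, edgeR). That was 1 of the 17 alternatives, and RBL2 passed in no other. DESeq2 gave an adjusted p of 0.140, edgeR without si-NC replicate 2 gave 0.369, and limma on unfiltered log2(FPKM + 1) gave 0.449.

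The balance among the 3 pocket protein transcripts was set out as shares of their summed FPKM within each sample. RBL2 made up 49.9%, 49.8% and 49.4% with si-NC and 48.2%, 47.2% and 47.3% with si-CNN3#1, a difference of -2.13 percentage points. RB1 made up 35.9% ± 0.474 with si-NC and 36.9% ± 0.210 with si-CNN3#1, and RBL1 14.4% ± 0.588 and 15.5% ± 0.448 (SD, n = 3 each). For each of the 3 genes the groups did not overlap, and the exact two-sided permutation test gave p = 0.1, the smallest that 3 samples against 3 allow, so that this test cannot reach 0.05 here. The 3 shares add up to the whole and are not independent of each other.

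**Figure D4:**
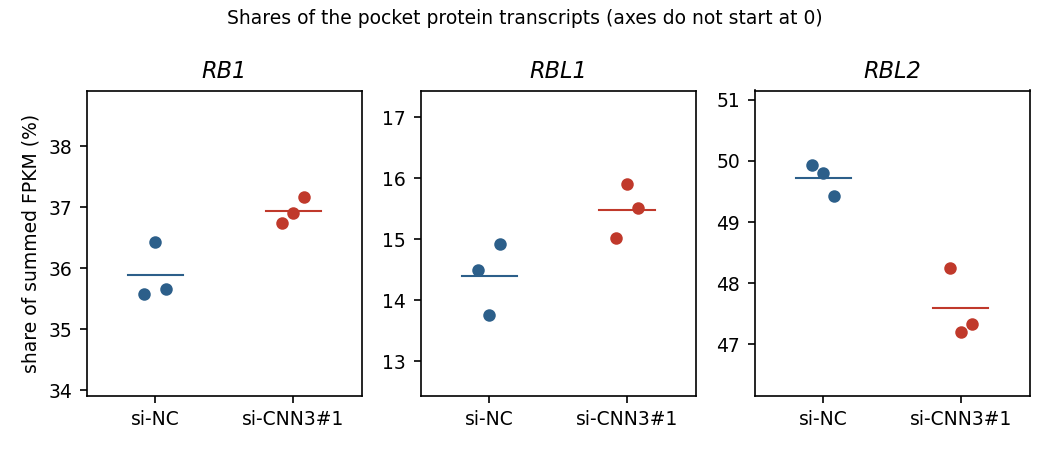
Shares of RB1, RBL1 and RBL2 in their summed FPKM (%), per sample, for si-NC (blue) and si-CNN3#1 (red), with lines at the group means and axes that do not start at 0. RBL2 was near 49.7% with si-NC and near 47.6% with si-CNN3#1, and the groups are apart in each panel.

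Among the cyclins, kinases and inhibitors that act on the pocket proteins, CDK2 changed most. CDK2, the kinase of cyclin E, which p21 inhibits, had 66.6, 68.3 and 65.4 CPM with si-CNN3#1 and 88.4, 94.5 and 87.1 CPM with si-NC. The groups were far apart (log2 fold change -0.43, SE 0.04, adjusted p = 4.67e-13, edgeR), and the fall held in all 17 alternatives. Of 18 genes listed, 17 were tested, 1 was called higher (CDKN2B) and 3 lower, or 23.5% beside 13.3% of all genes. CDKN2C, which encodes the inhibitor p18, fell by 0.13 (adjusted p = 0.0109) and CDK4, a kinase of D cyclins, fell by 0.11 (adjusted p = 0.0250). CDKN2C lost its call without si-CNN3#1 replicate 3 (adjusted p = 0.0520) or si-NC replicate 2 (0.278). CDK4 lost it without si-CNN3#1 replicate 1 or 2 or si-NC replicate 1 or 3 (0.0506 to 0.164). CDK4 was also not called with total counts alone (0.0682, edgeR) or by DESeq2 (0.0773). CCND1 and CDK6 were low in these cells, at 4.27 and 0.819 FPKM with si-NC, and did not pass (adjusted p = 0.882 and 0.290). CDK6 lay higher in every si-CNN3#1 sample than in any si-NC sample (log2 fold change 0.30, SE 0.17). The median of the tested list was 0.03. It was -0.01 without si-CNN3#1 replicate 1, 0.0078 without si-CNN3#1 replicate 3, 0.0070 without si-NC replicate 1 and 0.01 without si-NC replicate 3.

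The E2F factors and the DREAM complex, in which RBL1 or RBL2 join E2F4 and MuvB subunits, showed 1 gene called higher and 2 lower of 19. This is 15.8%, beside 13.3% of all genes. TFDP2, a partner of the E2Fs, fell by 0.16 (adjusted p = 0.00122), E2F3 fell by 0.13 (adjusted p = 0.0288) and LIN9, a MuvB subunit, rose by 0.16 (adjusted p = 0.0358, edgeR for all). TFDP2 did not pass by limma on log2(FPKM + 1) (adjusted p = 0.0672). E2F3 lost its call whichever library was left out (adjusted p from 0.0581 to 0.0843), and LIN9 lost it without si-CNN3#1 replicate 1 or any 1 si-NC replicate (0.0568 to 0.240). E2F1 had a log2 fold change of 0.04 (adjusted p = 0.491), and passed without si-CNN3#1 replicate 3 (0.11, adjusted p = 0.0315). E2F4 had one of -0.05 (adjusted p = 0.244).

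The genes that E2F turns on for S phase lay mostly below the control. Of 30 listed, 29 were tested, 26 of them below 0, and 7 were called lower and 1 higher, or 27.6% beside 13.3% of all genes. The median log2 fold change was -0.06, and -0.04 when total counts alone were used for scaling, with 4 called lower. On log2(FPKM + 1), limma called 3 lower. MCM2 and MCM3, subunits of the replicative helicase, and PCNA, the sliding clamp, fell by 0.16, 0.15 and 0.15 (adjusted p = 4.66e-06, 0.000119 and 3.71e-05, edgeR). MCM6, a subunit of the same helicase, rose instead, from 179 ± 4.17 to 210.4 ± 4.39 CPM (SD, n = 3 each; 0.24, adjusted p = 7.41e-09), in all 17 alternatives. The number called lower was 4 without si-CNN3#1 replicate 1 or without si-NC replicate 2, and at most 6 without any other library.

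**Figure D5:**
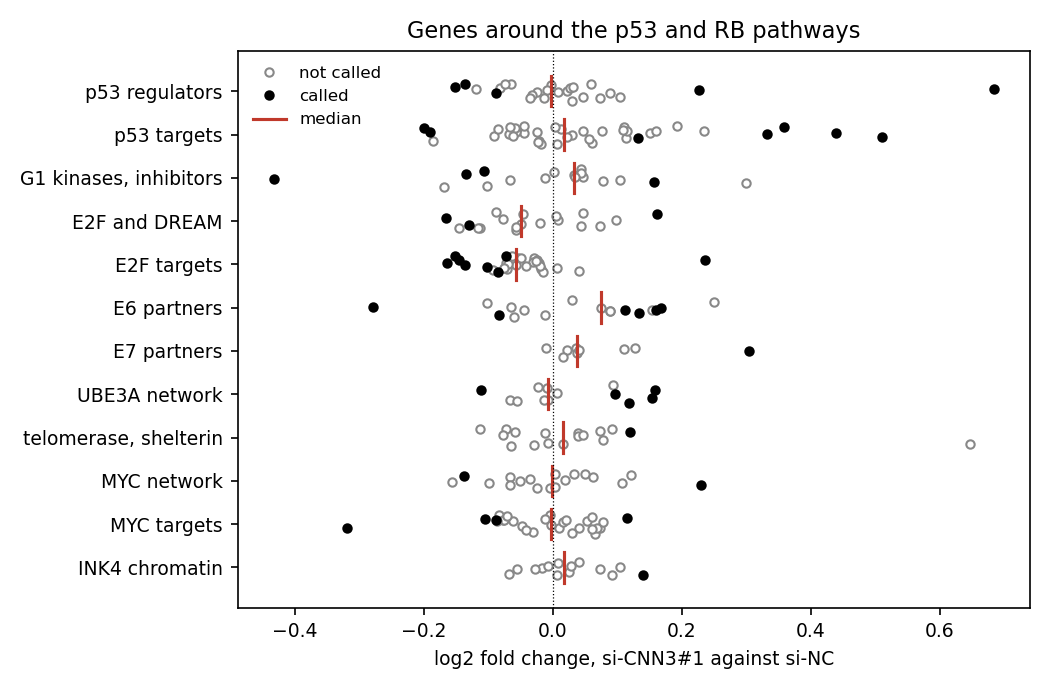
Log2 fold change (si-CNN3#1 against si-NC) of each tested gene in 12 lists around the 9 genes. Black points passed the adjusted p threshold of 0.05, open points did not, and red bars are list medians. The medians lay between -0.06 (E2F targets) and 0.07 (E6 partners). Points far from their list medians include TP63, TERC, GDF15, GADD45A, CDK2 and NCL, of which TERC, a gene of few counts, did not pass.

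UBE3A (ENSG00000114062, chromosome 15, 25333728 to 25439056, minus strand), the ligase that E6 uses, had 128, 129.97 and 127 CPM with si-CNN3#1 and 118, 120.2 and 124 CPM with si-NC. Every si-CNN3#1 sample lay above every si-NC sample. The difference was small, and the log2 fold change of 0.09 (95% interval 0.02 to 0.15) just missed the threshold (adjusted p = 0.0609, edgeR). It passed in 3 of the 17 alternatives: upper quartile scaling (adjusted p = 0.0426), total counts (0.0202) and the replicate block (0.0178). DESeq2 gave an adjusted p of 0.143 and limma on log2(FPKM + 1) gave 0.0904. Whichever library was left out, UBE3A did not pass (0.0511 to 0.248, edgeR). SNHG14, whose transcripts run antisense to UBE3A and silence one copy of it in neurons, had 0 to 5 counts in these samples.

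Genes that work with UBE3A showed 4 higher and 1 lower of 13, or 38.5% beside 13.3% of all genes. The part that the level of the listed genes plays in such shares was not tested. The median log2 fold change was -0.0068 and turned to 0.01 under scaling by total counts. UBE2D2, a ubiquitin-conjugating enzyme, rose by 0.15 (adjusted p = 0.000339), MAPK6, a kinase that joins UBE3A in a complex with HERC2, rose by 0.16 (adjusted p = 0.00266), and UBQLN1, a shuttle to the proteasome, rose by 0.12 (adjusted p = 0.00153). RAD23B, another shuttle protein, fell by 0.11 (adjusted p = 0.00137, edgeR for all). Of 17 other host partners of E6, 4 were called higher and 2 lower, or 35.3% beside 13.3% of all genes, with a median of 0.07. Total counts gave 6 higher and 1 lower. The median was 0.03 after thinning to the smallest total or without si-CNN3#1 replicate 2, and 0.05 without si-NC replicate 1. MAGI1, a junction scaffold that E6 can degrade, fell from 27.5 ± 0.406 to 22.7 ± 0.555 CPM (SD, n = 3 each; -0.28, adjusted p = 0.000423), and SCRIB, a polarity scaffold, fell by 0.08 (adjusted p = 0.0317). NFX1, which represses TERT in one of its forms, rose by 0.17 (adjusted p = 0.00166), GOPC, a Golgi scaffold, by 0.16 (adjusted p = 0.000406) and PATJ, a junction scaffold, by 0.13 (adjusted p = 0.0399). SCRIB lost its call without si-CNN3#1 replicate 1 or 3 or si-NC replicate 2 or 3 (adjusted p from 0.0579 to 0.136), and PATJ lost it without si-CNN3#1 replicate 3 or any 1 si-NC replicate (0.0796 to 0.236). The number of E6 partners called higher was 2 without si-CNN3#1 replicate 3, si-NC replicate 2 or si-NC replicate 3. Of 9 partners of E7 1 was called, or 11.1% beside 13.3% of all genes: IRF1, an interferon regulatory factor, which rose by 0.30 (adjusted p = 8.36e-07). Upper quartile scaling called 2 of these partners and total counts 3, all higher, and 2 were called higher without si-CNN3#1 replicate 3 or si-NC replicate 1.

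TERT (ENSG00000164362, chromosome 5, 1253147 to 1295069, minus strand) was read 404, 430 and 382 times with si-CNN3#1 and 432, 499 and 441 times with si-NC. This was 21.4, 22.4 and 20.9 CPM against 21.5, 20.0 and 20.4 CPM. The groups overlapped, and the log2 fold change of 0.07 had a 95% interval from -0.06 to 0.19, the widest of the 9 genes (adjusted p = 0.584, edgeR). A change of the size seen in CDKN1A lies outside that interval. TERC, the RNA template of telomerase, had only 8 to 20 counts and did not pass (log2 fold change 0.65, SE 0.36, adjusted p = 0.268). Of 17 telomerase and shelterin genes 1 was called, or 5.88% beside 13.3% of all genes. It was TERF2IP, the shelterin subunit RAP1, which rose by 0.12 (adjusted p = 0.00414).

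MYC (ENSG00000136997, chromosome 8, 127735434 to 127741434, plus strand) was read 2349, 2272 and 2122 times with si-CNN3#1 and 2819, 3259 and 2940 times with si-NC. In CPM this was 125, 118 and 116 against 140.5, 131 and 136. The highest si-CNN3#1 sample lay below the lowest si-NC sample. The means were 119.7 ± 4.35 and 136 ± 4.80 CPM (SD, n = 3 each), and MYC fell by 11.8% (log2 fold change -0.18, SE 0.03, with an adjusted p of 5.03e-05 by edgeR). The fall passed in 16 of the 17 alternatives and missed when limma was run on unfiltered log2(FPKM + 1) values (adjusted p = 0.0620). Its log2 fold change was between -0.21 and -0.16 when 1 library was left out.

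Next to MYC on the same chromosome, PVT1, a long noncoding RNA gene, rose from 26.8 ± 1.39 to 31.6 ± 0.320 CPM (SD, n = 3 each; log2 fold change 0.23, adjusted p = 0.00261, edgeR), so the neighbours went in opposite directions. MAX, the obligate partner of MYC, had a log2 fold change of -0.07 (adjusted p = 0.360). MXD4, a repressor that competes for MAX, fell by 0.14 (adjusted p = 0.0134) and lost its call without si-CNN3#1 replicate 2 or 3 or si-NC replicate 1 (adjusted p from 0.0754 to 0.147). PVT1 and MXD4 were the 2 genes called of 18 tested in this network, or 11.1% beside 13.3% of all genes. Of 28 tested MYC target genes, 1 was called higher and 3 lower, or 14.3% beside 13.3% of all genes. The median log2 fold change of these targets was -0.0034, which turned to 0.0024 with upper quartile scaling and to 0.01 with total counts. NCL, which encodes nucleolin, fell most, from 758 ± 5.91 to 607 ± 8.46 CPM (SD, n = 3 each; -0.32, adjusted p = 1.90e-15), and LDHA, lactate dehydrogenase A, fell by 0.10 (adjusted p = 0.00147). ODC1, the first enzyme of polyamine synthesis, fell by 0.09 (adjusted p = 0.0419) and lost its call without si-CNN3#1 replicate 2 or 3 or si-NC replicate 1 or 3 (0.116 to 0.230). HSPD1, a mitochondrial chaperonin, rose by 0.11 (adjusted p = 0.000318, edgeR for all).

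The tested genes nearest to the 2 called members in their pattern over the 6 samples were found by the root mean square difference of centred log2 CPM. Because they were picked for this likeness, similar log2 fold changes follow from the choice and are not a separate result. For CDKN1A these were CSF1, a macrophage growth factor (0.0229; log2 fold change 0.28, adjusted p = 4.16e-05), and NOG, the secreted protein noggin (0.0245; log2 fold change 0.27, adjusted p = 0.144, edgeR). For MYC they were EPN2, an endocytic adaptor (0.0161; log2 fold change -0.21, adjusted p = 0.00520), and SUMO3, a ubiquitin-like modifier (0.0171; log2 fold change -0.18, adjusted p = 1.55e-05).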

How the data were processed

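Total RNA of SiHa cells was sequenced in 6 libraries. Per the labels the submitters used TopHat2 2.0.9, Bowtie2 2.0.6, HTSeq and DESeq 1.10.1. The authors deposited raw read counts per Ensembl gene and FPKM values computed from them, and the genome build, annotation and strand setting are not given in the sources used here. Symbols came from GENCODE release 29 (GRCh38), which named 45342 of 48162 identifiers. UHRF1, BOP1 and PECAM1 of the lists matched none.

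Counts were compared with edgeR 4.0.16 in R 4.3.3 (TMM, filterByExpr, glmQLFit and glmQLFTest, no block, Benjamini-Hochberg over 15860 genes). Standard errors are the absolute log2 fold change over the square root of F. Adjusted p values come from this test unless another is named. Intervals are the estimate plus or minus the normal quantile times the SE (standard error). FPKM served for levels and shares, with an exact permutation test.

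Alternatives were RLE, upper quartile and total-count scaling, DESeq2 1.42.0, 2 other filters, a replicate block, thinning to the smallest total, limma 3.58.1 on the log2 of deposited FPKM plus 1 or 0.1, and leaving out each library. With an added 1, changes of low genes come out too small. In counts simulated for this comparison with 200 genes changed, edgeR recovered 77.0% among 15836 genes with 8 false calls, and 94.0% of those changed by at least 1 on the log2 scale. Every simulated gene had the same spread, and no change smaller than 0.25 was simulated. The recovery therefore does not describe smaller changes, such as that of MYC, or genes with a wider spread. Within groups chi-square over its degrees of freedom was 1.52 to 1.90, above counting noise, so no samples were merged. The common biological coefficient of variation was 0.0232 in edgeR, and the p values measure changes against this spread. Of the 2111 called genes, 1466 had a log2 fold change under 0.25 in size.

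The members and lists were chosen with earlier results of these data known. Named genes are the 9 members, CNN3, 10 reference genes, up to 3 called genes in each direction per list (mean of at least 1 CPM), and the 2 genes most like each called member. HBB, HERC2, carboxypeptidase M, DINOL, SNHG14, AKTIP, AC007342.6, CDKN2B-AS1 and AL136172.1 were named after their values or positions were seen. The result of 1 further reference gene is not reported here.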

Additional observations from a re-analysis of the deposited data

How the results depend on the processing

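The 15860-gene test called 2111 genes, 978 higher and 1133 lower with si-CNN3#1. DESeq2 called 1232 (520 and 712), limma on log2(FPKM + 1) called 1363 with 564 lower, limma on log2(FPKM + 0.1) called 1353 with 564 lower, and limma on unfiltered log2(FPKM + 1) called 585 (316 and 269). Leaving out 1 library gave between 1551 and 1747 calls (691 to 812 higher, 855 to 958 lower). Total counts alone gave 1294 higher and 863 lower.

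Among the 9 genes the number called was 2, and 1 (0 lower) by limma on unfiltered log2(FPKM + 1). There MYC had a log2 fold change of -0.16 (adjusted p = 0.0620). UBE3A was called besides CDKN1A with upper quartile scaling (0.0932) and total counts (0.105), so that 2 genes were called higher in each. Leaving out 1 library gave 2 or 3 called genes, 1 or 2 higher and 1 lower, and RBL1 ranged from 0.0477 to 0.134. With CPM in place of FPKM the differences in share between the groups were 0.805 for RB1, 1.46 for RBL1 and -2.26 percentage points for RBL2, while the shares themselves moved (RB1 with si-NC from 35.9% to 29.3%).

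Whether the replicate numbers pair the samples cannot be told from these data. The deviations of same-numbered samples correlated by only 0.0105, 0.0329 and 0.0275, although every sample correlated best with its own number. With the replicate block 2727 genes were called, and 4 of the 9, 2 higher and 2 lower. The block added RBL2 (-0.0807, adjusted p = 0.0132) and UBE3A (0.0880, adjusted p = 0.0178). Of the 42 called genes named from the lists, 18 were called in all 17 alternatives. DESeq2 did not call CDK4, DAXX, POLH, FDXR, CDKN2B, CDKN2C, E2F3, LIN9, SCRIB, PATJ, MXD4 and ODC1 (adjusted p from 0.0533 to 0.124). With total counts alone, edgeR did not call CDK4, TRIM28, FDXR, E2F3, SCRIB and ODC1 (0.0526 to 0.107). On unfiltered log2(FPKM + 1), limma also missed HSPD1, KRT8, KRT17, KRT18, LDHA, MAPK6, MCM2, TFDP2 and TP63 (adjusted p from 0.0516 to 0.229). The same fit missed CHEK1, DAXX, TRIM28, POLH, FDXR, GDF15, CDK4, CDKN2C, E2F3, LIN9, SCRIB, PATJ, MXD4 and ODC1 too (0.141 to 0.392).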
